A study of Homo sapiens with 8 samples.

Results

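The members described here are the 4 ERBB receptor genes, EGFR, ERBB2 (HER2), ERBB3 (HER3) and ERBB4, and 6 genes listed as their negative regulators. The 6 are ERRFI1, LRIG1, LRIG3, RNF41, CBL and CBLB, and their action on the receptors was not measured here. All members were taken by gene symbol from tables of 20531 genes. All 10 were among the 14429 genes whose normalised read count reached 10 in some library. Poly(A) RNA was sequenced from SKBR-3 and BT474m1, 2 human lines of HER2-amplified breast cancer. SKBR-3 is negative for the estrogen and progesterone receptors, and BT474m1 is a hormone receptor-positive derivative of BT474. Each line was grown in RPMI with 10% serum and was kept for 48 h with the vehicle DMSO, with lapatinib at 300 nM (a kinase inhibitor of EGFR and HER2), with JQ1 at 300 nM (which blocks BET bromodomain proteins) or with the 2 drugs together. This gave 8 groups of 1 library.

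Since a group held 1 library, no replicate spread could be measured and no test across libraries was made. Differences are given as log2 fold changes on the log2(value + 1) scale, and in counts a gene is called raised or lowered from 2-fold on. The 95% interval in brackets after a log2 value was computed from the recovered reads and covers counting error only. It is exact (Clopper-Pearson) for the change of a gene, and approximate (delta method) for ratios and for sums of changes. The 3 comparisons with DMSO in a line share the same DMSO library. Since the RNA came from whole cultures, fewer cells that use a gene and less of its RNA per cell cannot be told apart.

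ERBB receptors are tyrosine kinases of the cell surface that act as dimers. ERBB2 binds no known ligand and ERBB3 has little kinase activity of its own, so that the pair signals chiefly as a heterodimer toward PI3K and AKT. Their signalling is limited at several levels. ERRFI1 (also called MIG6) is a cytoplasmic protein that binds the kinase domain and is itself induced by growth factor signalling. LRIG1 and LRIG3 are transmembrane proteins with leucine-rich repeats and immunoglobulin domains, of which LRIG1 promotes loss of ERBB receptors from the surface. RNF41 (NRDP1) is a ubiquitin ligase for ERBB3, and CBL and CBLB are ubiquitin ligases recruited to activated EGFR and other tyrosine kinases.

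The sequence before the start of 4 regulators is shown because their RNA followed 3 different courses over the treatments: ERRFI1 was highest with JQ1 in both lines, LRIG1 and LRIG3 were lowest with JQ1 in both, and RNF41 was highest with both drugs in both. The counting interval included 0 for LRIG3 with JQ1 against DMSO in SKBR-3 (-0.22 [-0.54, 0.08]). It also did for RNF41 with both drugs against JQ1 in BT474m1 (0.07 [-0.00, 0.14]). Each sequence is the run of 250 bases that ends at the base before the outermost start listed for the gene in the RefSeq promoter table (GRCh38.p14), given 5′ to 3′ on the strand of the gene. Capitals mark matches on either strand to the E-box CACGTG, the CCAAT box, the GC box GGGCGG and the letters TATATA. The windows are chr1:8026310-8026559 for ERRFI1, chr3:66501122-66501371 for LRIG1, chr12:58920505-58920754 for LRIG3 and chr12:56221970-56222219 for RNF41, all on the minus strand.
ERRFI1: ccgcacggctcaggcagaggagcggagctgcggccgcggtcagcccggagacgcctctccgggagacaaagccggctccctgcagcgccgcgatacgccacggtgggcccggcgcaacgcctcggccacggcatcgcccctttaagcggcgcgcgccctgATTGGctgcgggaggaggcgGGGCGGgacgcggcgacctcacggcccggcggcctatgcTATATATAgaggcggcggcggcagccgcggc
LRIG1: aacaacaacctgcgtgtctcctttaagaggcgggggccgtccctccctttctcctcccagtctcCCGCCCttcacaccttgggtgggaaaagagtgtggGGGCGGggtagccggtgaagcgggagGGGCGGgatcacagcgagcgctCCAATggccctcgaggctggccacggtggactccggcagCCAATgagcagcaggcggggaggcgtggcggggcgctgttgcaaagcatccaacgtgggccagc
LRIG3: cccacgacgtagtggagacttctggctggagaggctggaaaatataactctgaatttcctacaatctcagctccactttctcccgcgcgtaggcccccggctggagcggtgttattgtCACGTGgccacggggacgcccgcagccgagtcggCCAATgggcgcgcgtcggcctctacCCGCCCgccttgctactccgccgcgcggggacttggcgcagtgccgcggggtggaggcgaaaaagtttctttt
RNF41: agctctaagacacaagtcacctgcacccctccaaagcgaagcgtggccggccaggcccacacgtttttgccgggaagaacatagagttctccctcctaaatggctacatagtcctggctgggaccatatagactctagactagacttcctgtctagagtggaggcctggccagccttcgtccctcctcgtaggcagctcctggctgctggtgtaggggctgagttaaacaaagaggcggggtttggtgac

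A window under the gene symbol was found in the promoter table for 8 of the 10 members, and not for ERBB3 and CBL. TATATA was found in ERRFI1 alone among these 8 windows, as 2 overlapping matches that begin 31 and 29 bases before the start, and in 3.73% of all 35116 windows of the same length. CCAAT was found in 4 of the 8 (ERBB2, ERRFI1, LRIG1 and LRIG3), against 32.0% of all windows, and GGGCGG in 6 of the 8 (EGFR, ERBB4, ERRFI1, LRIG1, LRIG3 and CBLB), against 42.6%. CACGTG was found in LRIG3 only, against 6.34%. Among the forkhead motifs, GTAAACA was in 0 of the 8 (2.98% of all windows) and GTCAACA in ERBB4 only (1.95%), while the AP-1 motif TGACTCA (4.2%), the CREB motif TGACGTCA (1.65%) and the TATA box TATAAA (10.7%) were in 0 of the 8. The ERRFI1 window held 75.2% G and C and 39 CpG sites, against 56.4% and 8 for RNF41 and medians of 58% and 11 over all windows. The window of CBLB was searched but is not shown, since part of it lies inside the annotated gene. The window of ERBB2, also not shown, ends at base 39688093 of chromosome 17, well upstream of the start of the main transcript at 39700064. A match to these letters is a description of the window and not a measured binding site.

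ERRFI1 (chr1:8011727-8026309 in GRCh38.p14) was lowest with lapatinib and highest with JQ1 in each line. In SKBR-3 its normalised read count was 644 with DMSO, 440.3 under lapatinib, 2114 under JQ1 and 1038 under both drugs. In BT474m1 it was 452, 286, 662 and 506 in the same order. The 4 treatments therefore ranked alike in the 2 lines, with DMSO second lowest and both drugs second highest.

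JQ1 gave 3.28-fold more ERRFI1 RNA than DMSO in SKBR-3 (log2 1.71 [1.61, 1.82]), and 1.06% of the 14429 genes had a larger increase there. In BT474m1 the same contrast gave 0.55 [0.43, 0.67], which is short of 2-fold, and 13.3% of genes had a larger increase. For lapatinib against DMSO the log2 values of ERRFI1 were -0.55 [-0.70, -0.40] in SKBR-3 and -0.66 [-0.82, -0.50] in BT474m1, neither of them 2-fold. In the libraries with both drugs the level was above that of DMSO in SKBR-3 (0.69 [0.57, 0.81]) and close to it in BT474m1 (0.16 [0.03, 0.30]). Adding JQ1 to lapatinib raised ERRFI1 2.35-fold in SKBR-3 (1.24 [1.10, 1.38]), and in BT474m1 the difference was 1.77-fold (0.82 [0.66, 0.99]). Adding lapatinib to JQ1 gave lower levels, with log2 values of -1.03 in SKBR-3 and -0.39 for BT474m1. The first of these lies at the 2-fold line and was -0.97 under 2 other scalings.

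The SKBR-3 library with JQ1 had the largest share of its values in its most abundant RNAs. The 20 highest genes took 14% of its summed values, against 6.83% to 11.1% in the other libraries. The 11.1% was in SKBR-3 with both drugs. The keratin genes KRT8, KRT18 and KRT19 were at 211202, 97486 and 194265 with JQ1 in SKBR-3. They were at 122390, 58479 and 110404 with both drugs and at 59145, 27539 and 70271 with DMSO. In BT474m1 JQ1 gave more KRT8 (40390.5 against 28237 with DMSO) and KRT19 (41090 against 23748), but less KRT18 (11918 against 13170). The part of these abundant RNAs in the ERRFI1 result was not tested. With all libraries scaled to equal totals the change of ERRFI1 with JQ1 in SKBR-3 was 1.57.

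**Figure D1:**
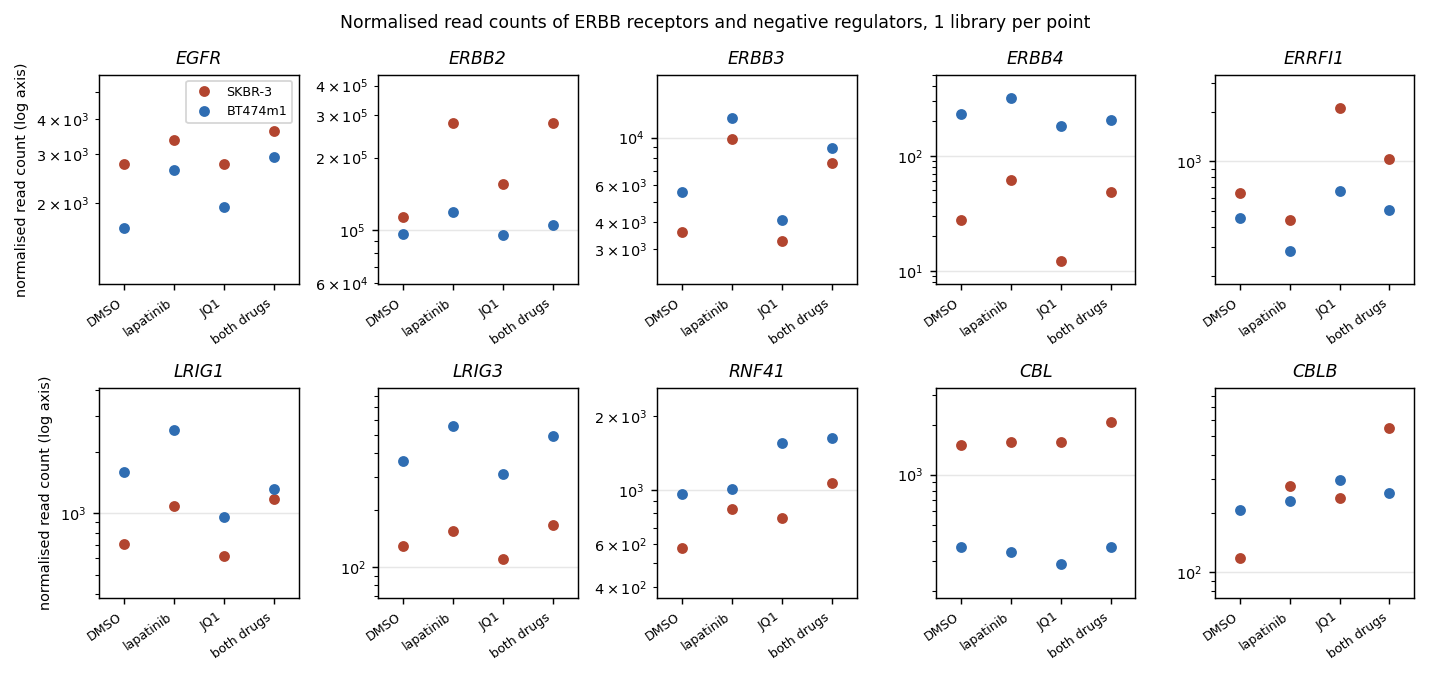
Normalised read count (log axis, a separate range for each gene) of the 10 members in each treatment, with SKBR-3 in red and BT474m1 in blue and 1 library per point, so that no error is drawn. ERRFI1 is lowest with lapatinib and highest with JQ1 in both lines, CBLB goes from 118 to 551 in SKBR-3 and no higher than 295 in BT474m1, and CBL is higher in SKBR-3 in every treatment.

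LRIG1 (chr3:66378797-66501121) took the opposite course to ERRFI1 with the single drugs. In SKBR-3 it was at 709 with DMSO, 1087 under lapatinib, 617 under JQ1 and 1168 under both drugs. In BT474m1 it was at 1582, 2562, 955 and 1313. JQ1 gave the lowest value in each line, but the library with both drugs was the highest of SKBR-3 and below DMSO in BT474m1.

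The log2 values of LRIG1 with lapatinib against DMSO were 0.62 [0.50, 0.73] in SKBR-3 and 0.70 [0.63, 0.76] in the other line, and JQ1 gave -0.20 [-0.33, -0.07] and -0.73 [-0.81, -0.65]. Adding JQ1 to lapatinib left a difference of 0.10 [-0.00, 0.21] in SKBR-3, an interval that includes 0. In BT474m1 it gave -0.96 [-1.04, -0.89], so that the LRIG1 level under lapatinib was 1.95-fold that under both drugs. No LRIG1 change with a drug reached 2-fold in either line.

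The reads of LRIG1 were not counted alone. Its values were fractions of a read in 8 of 8 libraries, and the main transcript of LRIG1 shares 2669 of its 5363 exon bases with SLC25A26, a mitochondrial carrier gene on the opposite strand. The reads given to the 2 genes added up to a whole number in 8 of 8 libraries, within a tolerance of 0.02, with 83.4% to 93.5% of them given to LRIG1. The summed values of the pair changed by 0.54 under lapatinib, -0.20 under JQ1 and 0.59 under both drugs in SKBR-3, and by 0.65, -0.65 and -0.17 in BT474m1. These keep the directions of LRIG1 in all 6 contrasts with DMSO.

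LRIG3 (chr12:58872155-58920504) had the directions of LRIG1 with each single drug. It was at 129, 155, 110.2 and 167 in SKBR-3 with DMSO, lapatinib, JQ1 and both drugs, and at 364, 553, 309.7 and 490.4 in BT474m1. Lapatinib gave 0.60 [0.46, 0.74] in BT474m1, whereas in SKBR-3 the interval of 0.26 [-0.03, 0.56] included 0. JQ1 gave -0.22 [-0.54, 0.08] and -0.23 [-0.39, -0.08] in SKBR-3 and BT474m1. Both drugs gave 0.37 [0.09, 0.66] and 0.43 [0.29, 0.57], so that LRIG3 was above DMSO with both drugs in each line, unlike LRIG1.

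RNF41 (chr12:56202179-56221969), the ligase for ERBB3, was highest with both drugs and lowest with DMSO in each line. Its values in SKBR-3 were 578 with DMSO, 832 under lapatinib, 764 under JQ1 and 1063 under both drugs, so that each single drug gave an intermediate level. In BT474m1 they were 959, 1005, 1559.9 and 1636, and there the libraries split by JQ1. Lapatinib gave 0.52 [0.39, 0.66] in SKBR-3 and 0.07 [-0.03, 0.16] in BT474m1, and JQ1 gave 0.40 [0.27, 0.53] and 0.70 [0.62, 0.78]. Both drugs gave 0.88 [0.75, 1.0] in SKBR-3 and 0.77 [0.69, 0.85] in BT474m1, and adding lapatinib to JQ1 in BT474m1 left 0.07 [-0.00, 0.14]. Under scaling by the median of ratios the change with both drugs in SKBR-3 was 1.02, past 2-fold.

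CBLB (chr3:105655461-105869449) gave the largest change of the 10 members with both drugs in SKBR-3. In SKBR-3 it was at 118 with DMSO, 276 under lapatinib, 239 under JQ1 and 551 under both drugs. In BT474m1 it was at 208, 231, 295 and 254, within a range of 1.42-fold. DMSO gave the lowest value in each line, and the highest came with both drugs in SKBR-3 and with JQ1 in BT474m1.

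In SKBR-3 lapatinib raised CBLB 2.33-fold (1.22 [0.96, 1.5]) and JQ1 raised it 2.02-fold (1.01 [0.75, 1.29]). Both drugs raised it 4.63-fold (2.21 [1.98, 2.47]), and 1.46% of genes had a larger increase in that contrast. In BT474m1 the 3 changes were 0.15 [-0.05, 0.35], 0.50 [0.32, 0.68] and 0.28 [0.09, 0.48]. The change with JQ1 in SKBR-3 lies at the 2-fold line and was 0.87 with equal totals and 0.96 with a pseudocount of 10.

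CBL (chr11:119206339-119308149) had no change of 2-fold with treatment and differed more between the lines than the other regulators did. In SKBR-3 it was at 1514, 1564, 1582 and 2083 with DMSO, lapatinib, JQ1 and both drugs, and in BT474m1 at 366, 343, 289.9 and 367. With DMSO CBL was 4.12-fold lower in BT474m1 (-2.04 [-2.17, -1.93]), and 6.52% of genes had a larger decrease in that contrast. In SKBR-3 the intervals of lapatinib (0.05 [-0.04, 0.13]) and JQ1 (0.06 [-0.02, 0.15]) included 0, and both drugs gave 0.46 [0.38, 0.54]. In BT474m1 JQ1 gave -0.34 [-0.49, -0.18], and both drugs gave 0.00 [-0.15, 0.16].

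**Figure D2:**
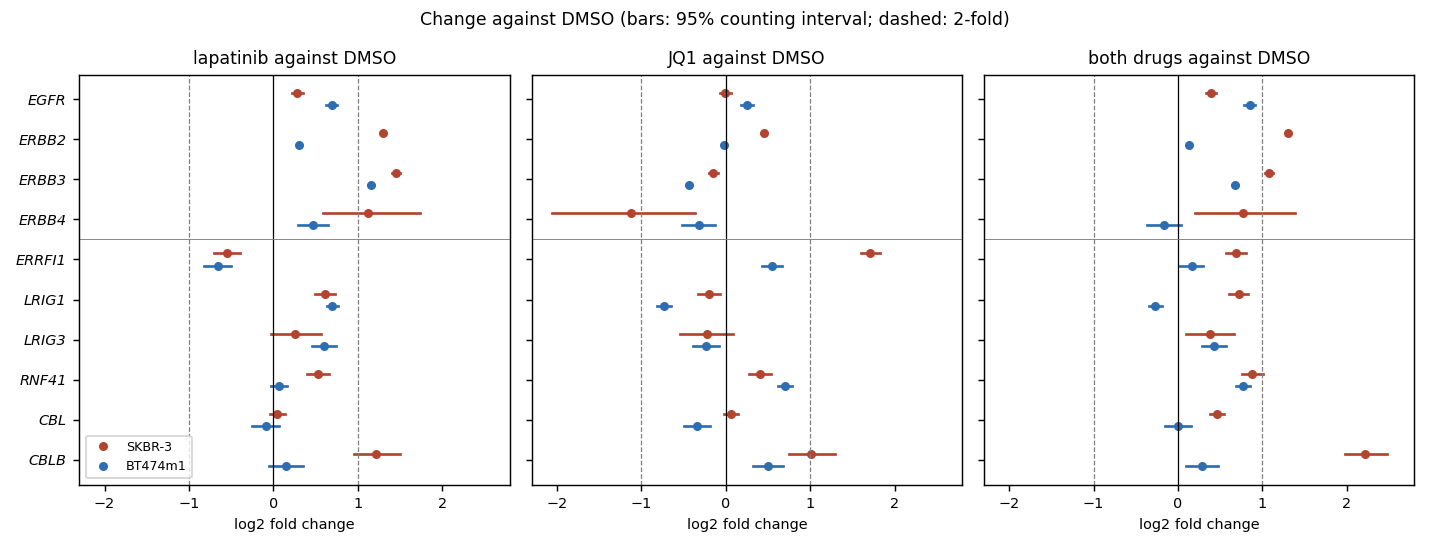
Log2 fold change of each member against DMSO with lapatinib, JQ1 and both drugs, with SKBR-3 in red and BT474m1 in blue. Bars are 95% counting intervals from the reads of 2 libraries, dashed lines mark 2-fold, and the horizontal line parts the receptors from the regulators. Of the regulators, ERRFI1 with JQ1 and CBLB in all 3 contrasts lie at or beyond 2-fold in SKBR-3, and 0 do in BT474m1.

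The receptors are given here as the background to their regulators. Lapatinib raised ERBB3 in both lines, from 3623 to 9897 in SKBR-3 (1.45 [1.40, 1.5]) and in BT474m1 from 5557 to 12375 (1.15 [1.12, 1.19]). ERBB2 went from 112656 to 277859 in SKBR-3 (1.30) and in BT474m1 from 95962 to 118705 (0.31). EGFR gave 0.28 and 0.69, and ERBB4, at 27.9 with DMSO in SKBR-3 and 229 in BT474m1, gave 1.12 [0.58, 1.74] and 0.47 [0.29, 0.65]. All 4 receptors were thus higher with lapatinib than with DMSO in both lines, and with JQ1 3 of the 4 were at or below DMSO in each. Of all genes, 53.0% and 54.5% were above DMSO with lapatinib in SKBR-3 and BT474m1, and 40.4% and 44.7% with JQ1. EGFR was the one above it in BT474m1 (0.25) and ERBB2 the one above it in SKBR-3 (0.46), although EGFR in SKBR-3 turned from -0.01 to 0.08 and ERBB2 in BT474m1 from -0.02 to 0.02 under scaling by the median of ratios. The EGFR values were fractions of a read in 8 of 8 libraries, and no partner gene was identified with which they add up to whole reads.

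Counted together, 4 of the 10 members were raised 2-fold or more by lapatinib in SKBR-3 (ERBB2, ERBB3, ERBB4 and CBLB) and 0 were lowered, where 11.1% of all genes were raised and 9.44% lowered. With a pseudocount of 10 ERBB4 fell short of 2-fold in this contrast (0.93), which left 3. In BT474m1 1 was raised (ERBB3) and 0 lowered, where 14% and 8.06% of genes were. JQ1 raised 2 members in SKBR-3 (ERRFI1 and CBLB) and lowered 1 (ERBB4), against 3.75% and 11.8% of genes, and raised and lowered 0 of the 10 in BT474m1, where 4.81% of genes were raised and 11.8% lowered. With a pseudocount of 10 the count for JQ1 in SKBR-3 went from 3 to 1, with ERRFI1 left, since ERBB4 turned to -0.77 and CBLB to 0.96. With both drugs 3 were raised in SKBR-3 (ERBB2, ERBB3 and CBLB) and 0 lowered, against 10.8% and 20.8%. With equal totals ERBB3 was at 0.98 there, which left 2. In BT474m1 0 of the 10 were raised or lowered, against 14.2% and 15.3% of genes.

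Among the 6 regulators the median log2 change was 0.39 under lapatinib, 0.23 under JQ1 and 0.70 under both drugs in SKBR-3, where the medians of all genes were 0.05, -0.08 and -0.08. In BT474m1 the medians of the regulators were 0.11, 0.13 and 0.22, beside 0.07, -0.06 and 0.00 for all genes. With both drugs all 6 regulators of SKBR-3 were above DMSO, and in BT474m1 5 of the 6 were, where LRIG1 was the exception and CBL differed by 0.00. Of all genes, 43.5% and 50.1% were above DMSO in these contrasts. With the median of ratios CBL was also below DMSO in BT474m1, at -0.02.

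Adding JQ1 to lapatinib raised 1 member at least 2-fold in SKBR-3, ERRFI1, and lowered 0, against 3.22% and 16.2% of genes. CBLB lay just under the line at 0.99 and passed it at 1.15 under the median of ratios, which took the count from 1 to 2. In BT474m1 0 of the 10 were raised or lowered, against 5.2% and 12.5%. Adding lapatinib to JQ1 raised 3 members in SKBR-3 (ERBB3, ERBB4 and CBLB) and lowered ERRFI1, against 9.79% and 12.3% of genes, and in BT474m1 raised ERBB3 and lowered 0, against 12.4% and 7.27%. ERRFI1 was lower and ERBB3 higher when lapatinib was added to JQ1 in both lines, with log2 values for ERBB3 of 1.22 in SKBR-3 and 1.11 in BT474m1.

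With DMSO, BT474m1 exceeded SKBR-3 by 2-fold or more in 3 members and fell short by as much in 1, where 26.8% of genes were higher and 15.6% lower. ERBB4 was 7.96-fold higher (2.99 [2.57, 3.55]), LRIG3 2.81-fold (1.49 [1.26, 1.74]) and LRIG1 2.23-fold (1.16 [1.05, 1.26]). RNF41 (0.73) and CBLB (0.81) were higher by less than 2-fold, and ERRFI1 was lower (-0.51 [-0.64, -0.38]). The 2 LRIG genes and CBL differed between the lines in opposite directions before any drug, and differences of 2-fold or more were common among all genes.

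A ratio of 2 genes within a library does not depend on how the library was scaled, so the balance between receptor and regulator was also followed, for all 24 pairs of a receptor and a regulator, a measure chosen after the values were seen. The values are not per length, so that only the change of a ratio is read. The ratio of ERBB3 to ERRFI1 values in SKBR-3 was 5.62 with DMSO, 22.5 under lapatinib, 1.55 under JQ1 and 7.34 under both drugs. In BT474m1 it was 12.3, 43.3, 6.21 and 17.6. The ratio moved up with lapatinib in both lines (2.0 [1.84, 2.16] and 1.82 [1.66, 1.98] on the log2 scale) and down with JQ1 (-1.86 [-1.98, -1.74] and -0.99 [-1.11, -0.86]). With both drugs it lay above DMSO by 0.38 [0.26, 0.51] in SKBR-3 and 0.52 [0.38, 0.65] in BT474m1.

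The ratio of ERBB3 to its ligase RNF41 was highest with lapatinib and lowest with JQ1 in both lines. It was 6.26 with DMSO, 11.9 under lapatinib, 4.28 under JQ1 and 7.17 under both drugs in SKBR-3, and 5.80, 12.3, 2.64 and 5.44 in BT474m1. Against DMSO the log2 changes with both drugs were 0.19 [0.06, 0.33] and -0.09 [-0.18, -0.00], so that the ratio with both drugs lay above that with DMSO in SKBR-3 and below it in BT474m1, a difference between lines that was not tested. With lapatinib alone they were 0.92 [0.79, 1.06] and 1.09 [0.99, 1.19].

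The ratio of ERBB2 to ERRFI1 values was 175 with DMSO, 631 under lapatinib, 73.1 under JQ1 and 268 under both drugs in SKBR-3. In BT474m1 it was 212, 416, 143 and 207. The ratio of ERBB3 to CBLB parted the lines, since with both drugs its log2 change was -1.15 [-1.40, -0.90] in SKBR-3 and 0.40 [0.20, 0.59] in BT474m1, which was not tested as a difference either. Over all 24 pairs the median log2 change was 0.80 under lapatinib, -0.55 under JQ1 and 0.15 under both drugs in SKBR-3, and 0.50, -0.23 and 0.11 in BT474m1. With lapatinib 16 of the 24 ratios rose and 3 fell in SKBR-3, and 17 rose and 3 fell in BT474m1, by intervals that excluded 0. With JQ1 4 rose and 15 fell in SKBR-3, and 8 rose and 13 fell in BT474m1. With both drugs the pairs were mixed, with 10 risen and 7 fallen in SKBR-3 and 11 and 7 in BT474m1. Ratios of other genes were not computed, so that these counts have no background. The ratio of ERBB2 to LRIG1 was among those that rose with JQ1 in both lines (0.66 and 0.71). The pairs share genes and libraries and are not independent.

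**Figure D3:**
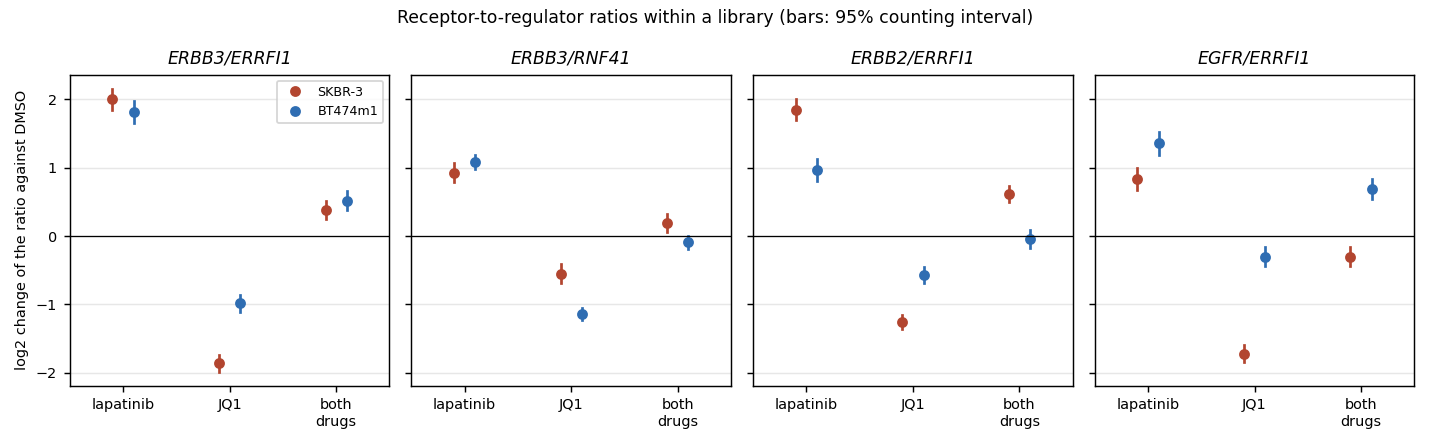
Log2 change against DMSO of the ratio of a receptor to a regulator within a library, for 4 of the 24 pairs that were picked with the values in view, with SKBR-3 in red, BT474m1 in blue and 95% counting intervals as bars. All 4 ratios are above 0 with lapatinib and below 0 with JQ1 in both lines, and with both drugs they lie between -0.30 and 0.69.

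The change with both drugs was set beside the sum of the 2 single-drug changes, which share the DMSO library. In SKBR-3 0 of the 10 members, and in BT474m1 0 of the 10, were 2-fold or more away from that sum, where 11.5% and 9.45% of all genes were. For RNF41 the difference was -0.05 [-0.22, 0.12] in SKBR-3 and 0.00 [-0.12, 0.12] in BT474m1, and for CBLB in SKBR-3, where the single changes summed to 2.23, it was -0.02 [-0.34, 0.30]. For CBLB in BT474m1 it was -0.36 [-0.63, -0.10]. ERRFI1 was below the sum in SKBR-3 (-0.48 [-0.65, -0.30]) and above it in BT474m1 (0.27 [0.07, 0.47]), while LRIG1 was above it in SKBR-3 (0.30 [0.14, 0.47]) and below it in BT474m1 (-0.24 [-0.34, -0.13]). CBL was above the sum in both lines, by 0.35 [0.23, 0.47] and 0.43 [0.21, 0.66].

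To compare levels between genes, values were divided by the length of the main (MANE Select) transcript in kilobases. On this scale ERBB2 was the highest and ERBB4 the lowest of the 10 members in all 8 libraries. ERRFI1 ranked between second and seventh: with JQ1 in SKBR-3 it reached 683 per kilobase and passed ERBB3 at 583, and with lapatinib in BT474m1 it stood at 92.2. CBL was at 136 to 187 per kilobase in SKBR-3 and 26.0 to 32.8 in BT474m1, and CBLB was at most 81.6 and 43.7, so that CBL exceeded CBLB in the 4 SKBR-3 libraries and, of the BT474m1 libraries, in that with DMSO. These levels assume that each gene was read over that transcript.

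Of 31 further genes that act on ERBB receptors (ubiquitin ligases and adaptors, phosphatases, sorting and deubiquitination factors, chaperones and LRIG2), 31 passed the filter on low values. Lapatinib raised 1 of them at least 2-fold and lowered 1 in SKBR-3, where 11.1% of all genes were raised and 9.44% lowered, and changed 0 in BT474m1, where 14% and 8.06% were. JQ1 changed 0 in either line, where 3.75% and 11.8% of genes were raised and lowered in SKBR-3 and 4.81% and 11.8% in BT474m1. With both drugs 3 were raised and 1 was lowered in SKBR-3, against 10.8% and 20.8%, whereas in BT474m1 1 was raised and 2 were lowered, against 14.2% and 15.3%. Their median log2 changes lay between -0.09 and 0.26 over these 6 contrasts.

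NEDD4L, a ubiquitin ligase of the NEDD4 family, was the one of the 31 raised at least 2-fold in both lines, with both drugs. It was at 253 with DMSO, 612 under lapatinib, 303 under JQ1 and 605 under both drugs in SKBR-3, and at 4970.3, 6455, 5236 and 10184 in BT474m1. The changes with both drugs were 1.26 [1.08, 1.44] and 1.03 [1.0, 1.07], the second at the 2-fold line, and with DMSO the level was 4.29 higher on the log2 scale in BT474m1.

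The other genes of that list past 2-fold against DMSO are named after their values were seen. In SKBR-3 the phosphatase gene UBASH3B, whose product binds CBL proteins, was at 51.5 with DMSO, 5.36 under lapatinib, 58.6 under JQ1 and 2.75 under both drugs (-3.05 [-4.63, -2.15] with lapatinib), and in BT474m1 it was at or below 2.42 throughout. With both drugs in SKBR-3, PTPN12 (1.12 [1.06, 1.19]), a phosphatase, and TSG101 (1.15 [1.05, 1.25]), a subunit of the ESCRT-I sorting complex, were raised. In BT474m1 both drugs lowered PTPN9 from 752 to 256 (-1.55 [-1.71, -1.40]) and the CBL adaptor SH3KBP1 from 146 to 55.4 (-1.38 [-1.74, -1.06]). PTPN9 in SKBR-3 went from 758 to 944 in the same contrast. CBLC, the third CBL gene, was at 132 to 245 in SKBR-3 and between 0 and 1.20 in BT474m1, under the 3 reads taken as the floor.

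**Figure D4:**
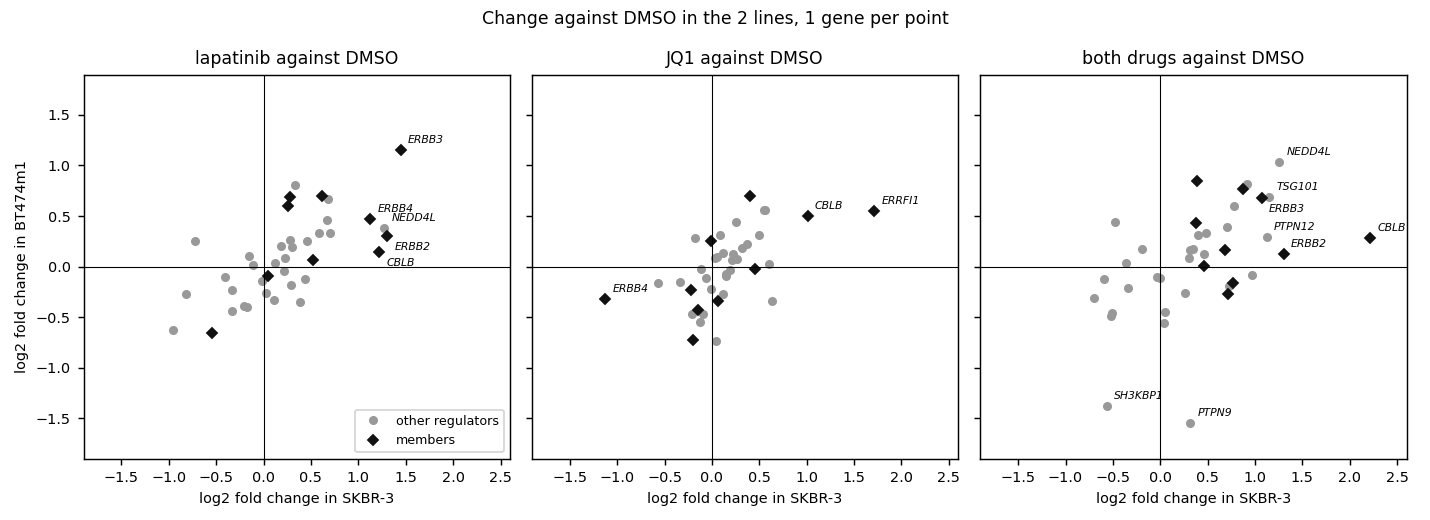
Log2 fold change in SKBR-3 (x axis) against that in BT474m1 (y axis) for the 10 members (black diamonds) and the other regulators with more than 3 reads in each library used (grey circles), by treatment; genes past 2-fold in a line are named, and UBASH3B is not drawn. With both drugs NEDD4L alone lies past 2-fold in both lines, PTPN9 and SH3KBP1 lie past it in BT474m1 alone, and ERBB2, ERBB3, CBLB, PTPN12 and TSG101 in SKBR-3 alone.

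The genes whose course over the 8 libraries was most like that of ERRFI1 and LRIG1 were sought among 9841 genes that reached 100 in some library of each line, as the Pearson correlation of log2 values after the mean of each line was taken away. For ERRFI1 they were VASN (r = 0.99), GLI3 (0.98) and DHX36 (0.98). VASN, which encodes a membrane protein that binds TGF-beta, ranked the 8 centred values exactly as ERRFI1 did, but with a smaller change with JQ1 in SKBR-3 (0.97). GLI3, a transcription factor of the Hedgehog pathway, did so too, with 0.99. DHX36 changed by 0.40 in that contrast. For LRIG1 they were ATG16L1 (r = 0.99), HSF1 (0.98) and CISH (0.98), an autophagy gene, the heat shock transcription factor and a member of the SOCS family. CISH was at 674, 1181, 714 and 1442 in SKBR-3 and at 446, 704, 223 and 331 in BT474m1.

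Within the members the same measure gave r = 0.93 for ERBB3 with LRIG3, 0.87 for ERBB3 with LRIG1 and 0.85 for the 2 LRIG genes, and -0.67 for ERBB3 with ERRFI1. RNF41 stood highest with CBLB (0.79) and low with ERBB3 (0.19). These describe 8 libraries, 4 from each line, that were scaled alike and differ in depth.

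The depth was 21420113 to 34112379 reads on genes, and 1 read was worth 0.471 to 0.766 units, so that 3 reads correspond to 1.41 to 2.30 units. The lowest value of a member, ERBB4 in SKBR-3 with JQ1, was 12.2. The labelled lines were checked against defining genes: the summed epithelial genes EPCAM, KRT8, KRT18 and KRT19 were at 147684 to 507029 in SKBR-3 and 61996 to 98724 in BT474m1, and ESR1 and PGR summed to 2.58 to 19.9 and 441 to 14293. Of 5 genes of blood, endothelial and stromal cells, PECAM1 and COL3A1 were at 0 in all 4 SKBR-3 libraries, and the sum was 24.8 to 124 in SKBR-3 and 339 to 1262 in BT474m1, nearly all of it COL1A1. Their part in the differences between the lines was not tested.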

How the data were processed

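The deposited tables hold a normalised signal per gene, which the authors made by estimating reads per gene with RSEM and scaling each library to an upper quartile of 1000 over genes with reads. The submitters' processing notes name the hg19 build, SAMtools 1.2, Picard 1.88 and DESeq2 1.12.3, whereas the methods text of the study names hg38, STAR and Salmon, so that the build behind the tables is uncertain. The labels name both a stranded kit and a kit that does not mark strand. The labels give 48 h of treatment and were followed. The study's description of its SKBR-3 expression values names the same time, while its methods give a shorter one for drug treatment in general.

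Groups were taken from the labels. Scripts ran in Python 3.11.15 (pandas 2.3.3, numpy 2.4.6, scipy 1.17.1, matplotlib 3.10.9). Each library has a smallest step that its values share, taken as what 1 read is worth, with which 83.8% to 85.2% of the values above 0 were whole reads within 0.02. The filter was a value of 10 in at least 1 library (6102 genes removed), the pseudocount 1, and the threshold 2-fold. Intervals treat reads as independent molecules, which PCR copies are not, and those of ratios and of sums of changes use the delta method. Positions and promoter windows come from RefSeq and transcript lengths from GENCODE 44; they place genes, not reads. Protein sequences were not used here.

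The members and the list of 31 further regulators were chosen with earlier results of these data known. Besides the members, genes were named where they passed 2-fold in both lines in any drug treatment against DMSO, or where they were among the 3 most like ERRFI1 or LRIG1. Genes that define cell types, with KRT8, KRT18 and KRT19 among them, came from a separate list, and SLC25A26 from its overlap with LRIG1. Other names are marked as chosen with values in view. The TATA, CCAAT and GC box motifs were chosen after the ERRFI1 and LRIG1 sequences were seen. Alternatives were equal totals or the median of ratios as the scaling, a pseudocount of 10, a filter at 100 or none, and Spearman's rho for likeness.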

Additional observations from a re-analysis of the deposited data

Results flagged for a closer look

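With each contrast in each line resting on 2 libraries, the members whose counting intervals lay on opposite sides of 0 in the 2 lines were looked at again, and the differences between lines were not tested. For CBLB, adding lapatinib to JQ1 gave 1.20 in SKBR-3 and -0.22 in BT474m1, a difference of 1.42 on the log2 scale. For LRIG1, both drugs against DMSO gave 0.72 and -0.27, a difference of 0.99, and the value of LRIG1 with SLC25A26, with which it shares reads, gave 0.59 and -0.17. For ERBB2, JQ1 against DMSO gave 0.46 and -0.02, a difference of 0.48, but the value in BT474m1 turned to 0.02 under scaling by the median of ratios, so that the directions no longer differed.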

How the results depend on the processing

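Within a line each group held 1 library, so that no library of a comparison could be left out. A fit over both lines with the line as a block was not run. A pseudocount of 10 took the members changed by JQ1 in SKBR-3 from 3 to 1 (ERBB4 to -0.77, CBLB to 0.96), and the further regulators changed by both drugs in BT474m1 from 2 to 1 against lapatinib and from 2 to 1 against JQ1. Scaling by the median of ratios took the members changed by both drugs against lapatinib in SKBR-3 from 1 to 2, with CBLB at 1.15, and the further regulators changed by both drugs against JQ1 there from 2 to 5, as did equal totals (5). A filter at 100 left 1 further regulator with lapatinib against DMSO in SKBR-3, 1 with both drugs against JQ1 there and 1 in BT474m1, by dropping low genes. The other counts stayed within 1.5 times.

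Of the 110 log2 fold changes of members, 3 crossed the 2-fold line under each of a pseudocount of 10, the median of ratios and equal totals, and of those whose interval excluded 0, ERBB2 with JQ1 in BT474m1 changed sign, under the median of ratios. The largest shifts were 0.51, 0.16 and 0.15. Out of the 110 values, 37 left their counting interval under the median of ratios, 21 under equal totals and 0 with a pseudocount of 10. Equal totals moved the median of all genes by -0.14 with JQ1 in SKBR-3, and the median of ratios by 0.11 for both drugs against lapatinib there and by -0.15 between the lines with DMSO. For the genes most like ERRFI1 and LRIG1, Spearman's rho was 0.88 to 1.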
